A study of Homo sapiens with 2 samples.

Results

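Accessibility was compared between MAK683- and DMSO-treated G401 cells at 9 genes of the TGF-beta and activin pathway. By the tallest peak no farther than 3 kb from the transcription start site (TSS), TGFBR2 and TGFBI had the largest ratios of MAK683 over DMSO. With a window of 1 kb INHBA had the largest. That value came from a shared upstream region of similar height, whose peak reached the window in MAK683 alone. Lower peaks at and behind the TSS also overlapped that window, again in MAK683 alone. The genes were the ligand genes TGFB1, TGFB2, TGFB3, INHBA and INHBB, the receptor genes TGFBR1, TGFBR2 and TGFBR3, and the response gene TGFBI, out of 20136 protein-coding genes in all. They were taken by name. A deposited peak belonged to a gene when it overlapped the gene body in the GENCODE annotation or lay, at least in part, no more than 3 kb from the TSS. By this rule the genes held 47 of the 114060 DMSO peaks and 71 of the 161184 MAK683 peaks.

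G401 is an established human line from a malignant rhabdoid tumor, described by the study as deficient in SMARCB1. One culture was given MAK683 at 3 μM and the other was given DMSO, the solvent, each for 3 days. MAK683 binds EED, a core subunit of Polycomb Repressive Complex 2 (PRC2), which deposits the repressive histone mark H3K27me3. Open chromatin was profiled by ATAC-seq, in which Tn5 transposase cuts accessible DNA and tags the cut ends for sequencing, with 1 library per group. Differences between the libraries are therefore given without p-values, as values of these cultures only.

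TGF-beta ligands and activins are secreted dimers of one growth factor family. INHBA and INHBB encode the activin chains. A ligand brings together a type II receptor, such as the TGFBR2 protein, and a type I receptor, such as the TGFBR1 protein, which phosphorylates SMAD2 and SMAD3. The phosphorylated SMADs join SMAD4, enter the nucleus and change transcription, and genes induced in many cell types include TGFBI, which encodes a secreted protein of the extracellular matrix. TGFBR3 encodes betaglycan, a co-receptor that presents ligand.

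After removal of duplicate tags, the DMSO library retained 16598348 tags and the MAK683 library 18265284. Peak height was the pileup at the summit per 1000000 of these tags (RPM below). The lowest listed peak had 6 tags in each library, 0.361 RPM in DMSO and 0.328 RPM in MAK683. The tallest peak within 3 kb of the TSS was taken as a gene's promoter height, and a gene without one was set to a floor of 0.361 RPM. Heights carry exact 95% Clopper-Pearson intervals and log2 ratios of MAK683 over DMSO carry exact 95% conditional binomial intervals. Both cover counting error only, because 1 library per group leaves variation between cultures and preparations unmeasured. The reads also carry no molecular identifiers and several can stem from one molecule, so the intervals may be too narrow. The libraries also differed as a whole. MAK683 had 1.41 times as many peaks, and the median log2 ratio of promoter height was -0.42 over 16242 protein-coding genes with a promoter peak in either library. No peak was listed over SMARCB1 in either library. CDKN2A encodes p16 and is a known target of PRC2. Its tallest promoter peak had 18 tags in DMSO and 41 in MAK683.

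The 250 bases just upstream of the TSS are printed for 5 of the 9 genes, because these windows show where peaks appeared in the MAK683 library and where they did not. They were read from GRCh37, the build of the peaks, 5′ to 3′ on the strand of the gene. Capitals mark GC boxes (GGGCGG, whose copies may overlap one another) and TATA boxes (TATAAA), searched on both strands. The TGFBI window (chr5:135364427-135364676, plus strand) held the MAK683 promoter summit and lay outside every DMSO peak. The TGFBR2 window (chr3:30647843-30648092, plus strand) and the INHBA window (chr7:41742689-41742938, minus strand) each lay wholly inside a MAK683 peak and outside every DMSO peak. The INHBB window (chr2:121103462-121103711, plus strand) fell between peaks in both libraries. The TGFBR3 window (chr1:92351709-92351958, minus strand) lay inside a peak in both and is given for contrast.
TGFBI: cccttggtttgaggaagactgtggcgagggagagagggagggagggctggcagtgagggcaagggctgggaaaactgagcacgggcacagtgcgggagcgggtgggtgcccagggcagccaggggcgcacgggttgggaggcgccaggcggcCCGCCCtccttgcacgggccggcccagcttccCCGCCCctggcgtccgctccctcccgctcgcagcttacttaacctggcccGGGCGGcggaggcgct
TGFBR2: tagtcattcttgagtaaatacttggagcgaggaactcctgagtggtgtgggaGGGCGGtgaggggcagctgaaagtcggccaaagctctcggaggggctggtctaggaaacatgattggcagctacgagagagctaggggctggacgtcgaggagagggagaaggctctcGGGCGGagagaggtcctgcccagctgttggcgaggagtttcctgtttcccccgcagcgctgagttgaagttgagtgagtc
INHBA: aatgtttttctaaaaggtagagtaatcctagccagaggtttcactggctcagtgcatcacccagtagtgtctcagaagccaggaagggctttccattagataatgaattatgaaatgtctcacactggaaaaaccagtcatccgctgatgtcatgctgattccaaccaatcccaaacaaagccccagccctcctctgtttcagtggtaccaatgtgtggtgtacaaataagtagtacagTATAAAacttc
INHBB: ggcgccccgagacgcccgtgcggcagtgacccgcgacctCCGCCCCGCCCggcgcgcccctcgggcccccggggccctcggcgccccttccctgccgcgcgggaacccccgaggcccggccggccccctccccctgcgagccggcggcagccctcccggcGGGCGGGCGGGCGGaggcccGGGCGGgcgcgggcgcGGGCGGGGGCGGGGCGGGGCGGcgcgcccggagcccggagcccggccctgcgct
TGFBR3: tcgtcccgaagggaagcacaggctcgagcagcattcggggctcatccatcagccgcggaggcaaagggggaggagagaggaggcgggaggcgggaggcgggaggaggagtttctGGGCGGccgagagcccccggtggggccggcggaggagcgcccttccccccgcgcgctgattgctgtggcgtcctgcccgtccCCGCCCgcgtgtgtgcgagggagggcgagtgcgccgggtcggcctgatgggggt

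Over all 9 genes, the upstream window overlapped a DMSO peak at 4 genes and a MAK683 peak at 8. Of all protein-coding genes, 64.5% had the window in a DMSO peak and 67.6% in a MAK683 peak. The 4 genes covered in MAK683 alone were TGFB2, INHBA, TGFBR2 and TGFBI, with 26, 250, 250 and 168 of the 250 bases inside a peak. Across all protein-coding genes, 5.71% had the window in a MAK683 peak and no DMSO peak. The opposite pattern occurred at 2.61% of all genes and at 0 of the 9. This comparison was chosen after the peak positions had been seen.

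The windows differed widely in base composition. GC boxes were present in 5 of the 9 (58.7% of all protein-coding windows and 67.1% of those with a promoter peak), with 10 in INHBB, 6 in TGFB1, 3 in TGFBI and 2 each in TGFBR2 and TGFBR3. A TATA box was found in TGFB2, TGFB3 and INHBA, against 9.4% of all windows and 6.53% of those with a peak. It began 29 and 30 bases before the TSS of TGFB2 and TGFB3. In INHBA it began 11 bases before. The SMAD element CAGACA was found in TGFB2 alone (11.1% of all windows), and neither the SMAD palindrome GTCTAGAC (0.179%) nor the AP-1 motif TGANTCA (4.73%) occurred in any of the 9. A match describes letters in this window and not a bound site. Within 500 bases of the TSS the GC content ran from 36.3% at INHBA to 78.8% at INHBB, around a median of 63.0% over promoters with a peak. Only 0.727% of promoters with a peak had a lower GC content than INHBA. The 4 genes whose window overlapped a peak in MAK683 alone ran from 36.3% (INHBA) through 52.6% (TGFB2) and 62.5% (TGFBR2) to 67.3% (TGFBI).

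Promoter height was higher in MAK683 at 4 of the 9 genes, TGFBR2, TGFBI, INHBB and INHBA, and lower at TGFB1, TGFB2, TGFB3, TGFBR1 and TGFBR3. Of all promoters, 21.5% were higher in MAK683. With ratios centred on the median of promoters with a peak in both libraries, -0.46, 7 of the 9 genes were higher, beside 53.3% of all promoters, and TGFB3 and TGFBR1 were lower. A difference of at least 2-fold upward was seen at 2 of the 9, TGFBR2 and TGFBI, against 3.37% of all promoters. Both belonged to the 4 of the 9 genes that had under 1 RPM or no peak in DMSO, and among all 4122 such genes 13.2% were at least 2-fold higher. None of the 9 was at least 2-fold lower, compared with 5.75% of all promoters. A promoter peak was listed for 8 of the 9 genes in DMSO and all 9 in MAK683, beside 72.8% and 78.8% of all protein-coding genes. The 1 gene with a peak in MAK683 alone compares with 9.77% of the promoters with a peak in either library. The median log2 ratio of the 9 genes was -0.14, beside -0.42 for all promoters.

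**Figure D1:**
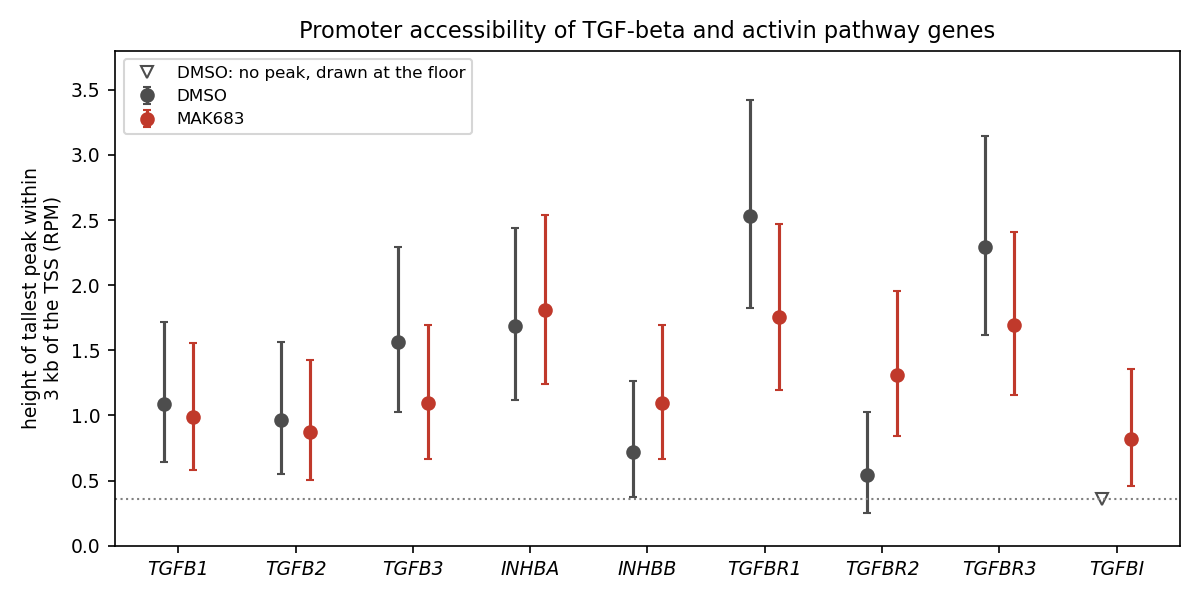
Height of the tallest peak within 3 kb of the TSS of each gene, in RPM on a linear axis, in the DMSO library (grey) and the MAK683 library (red), 1 library each. Bars are exact 95% intervals of counting error, the dotted line is the floor of 0.361 RPM, and the open triangle marks TGFBI in DMSO, where no peak was listed. TGFBR2 went from 0.542 to 1.31 RPM, while TGFBR1 and TGFBR3 were the tallest promoters in DMSO and lower in MAK683.

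The plot of promoter heights shows that the counting intervals of the libraries overlapped at all 8 genes with promoter peaks in each library. TGFBR1 and TGFBR3 were highest in DMSO, and INHBA and TGFBR1 were highest in MAK683. The spread between genes was narrower in MAK683, where heights ran from 0.821 to 1.81 RPM, than in DMSO, where the listed heights ran from 0.542 to 2.53 RPM. In the DMSO order, neighbours such as TGFB1 and TGFB2, or TGFBR1 and TGFBR3, had counting intervals that overlapped.

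Among the ligand genes, the 3 TGF-beta isoforms had promoter heights that were similar or lower in MAK683. TGFB1 (ENSG00000105329, chromosome 19, 41807492 to 41859827, minus strand) encodes the most widely expressed isoform. Its tallest promoter peak had 18 tags in each library, 1.08 RPM in DMSO and 0.985 RPM in MAK683, a log2 ratio of -0.14 (-1.16 to 0.89). The summits were not at the same place. The DMSO summit lay 1156 bp downstream of the TSS in a coding exon, in a single peak of 4014 bp, and the MAK683 summit lay 1140 bp upstream of the gene, in 1 of 3 separate peaks over the same stretch. TGFB2 (ENSG00000092969, chromosome 1, 218518678 to 218617961, plus strand) had 16 tags in both, 0.964 and 0.876 RPM, with a log2 ratio of -0.14 (-1.23 to 0.96). Its summits lay in an untranslated region, 729 bp downstream of the TSS in DMSO and 167 bp downstream in MAK683. The antisense gene TGFB2-AS1 starts within 3 kb of the same peaks, and ATAC-seq does not tell strands apart. TGFB3 (ENSG00000119699, chromosome 14, 76424440 to 76449354, minus strand) had 26 tags in DMSO (1.57 RPM) and 20 in MAK683 (1.09 RPM). The log2 ratio was -0.52 (-1.43 to 0.38), and IFT43, a gene of ciliary transport, shares this promoter region. For all 3 isoforms the interval of the ratio included 0.

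Outside the TSS window, TGFB1 had its tallest peak in both libraries at an intronic region of 41813489 to 41816732 with the same summit, 45240 bp from the TSS. It had 41 tags in DMSO and 24 in MAK683, 2.47 and 1.31 RPM. The log2 ratio of -0.91 (-1.70 to -0.15) left out 0 but included -0.46, the median of promoters with a peak in both libraries. This region is near the TSS of CCDC97, which overlaps the longest TGFB1 transcript, and it cannot be assigned to TGFB1 alone. TGFB2 had 1 further peak, 16182 bp (DMSO) and 16188 bp (MAK683) from the TSS, with 11 tags in each library. In DMSO, TGFB3 had peaks of 9 tags each at 3737 bp and 3340 bp into the gene. Both overlapped a MAK683 peak of 14 tags at 3392 bp, again in an intron.

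INHBA (ENSG00000122641, chromosome 7, 41706766 to 41745432, minus strand) encodes the beta A chain, whose dimer is activin A. Its tallest promoter peak was similar in the libraries, with 28 tags in DMSO and 33 in MAK683. These are 1.69 and 1.81 RPM, with a log2 ratio of 0.10 (-0.67 to 0.88). That peak lay about the upstream end of the gene, 2244 bp (DMSO) and 2193 bp (MAK683) before the canonical TSS at 41742688. At the canonical TSS itself, no peak was listed in DMSO. In MAK683 a peak at 41742249 to 41742980 covered the TSS with 13 tags, 0.712 RPM (0.379 to 1.22), and a broader one at 41738574 to 41742089 followed it with 21 tags, 1.15 RPM (0.712 to 1.76). Further into the gene, a peak was listed in both libraries, with 16 tags (0.964 RPM) 6504 bp from the TSS in DMSO and 25 tags (1.37 RPM) at 6497 bp in MAK683. The antisense gene INHBA-AS1 starts within 3 kb of this peak. INHBA thus had a shared upstream peak of nearly equal height and a set of peaks at and behind its canonical TSS in MAK683 alone.

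INHBB (ENSG00000163083, chromosome 2, 121103712 to 121109379, plus strand) encodes the beta B chain of activin B. It had 3 peaks in each library at matching places and none beyond the TSS window. The upstream peak had 10 tags in DMSO (0.602 RPM, 2504 bp before the TSS) and 20 in MAK683 (1.09 RPM, 2561 bp before it), a log2 ratio of 0.86 (-0.30 to 2.12). The peak nearer to the TSS had 12 tags in both, 0.723 and 0.657 RPM. The peak in the intron, 1451 bp downstream in DMSO and 1394 bp in MAK683, had 9 and 15 tags, 0.542 and 0.821 RPM. Comparing the tallest peak of each library, which sat at different places, gave a log2 ratio of 0.60 (-0.50 to 1.76). None of these ratios left out 0.

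**Figure D2:**
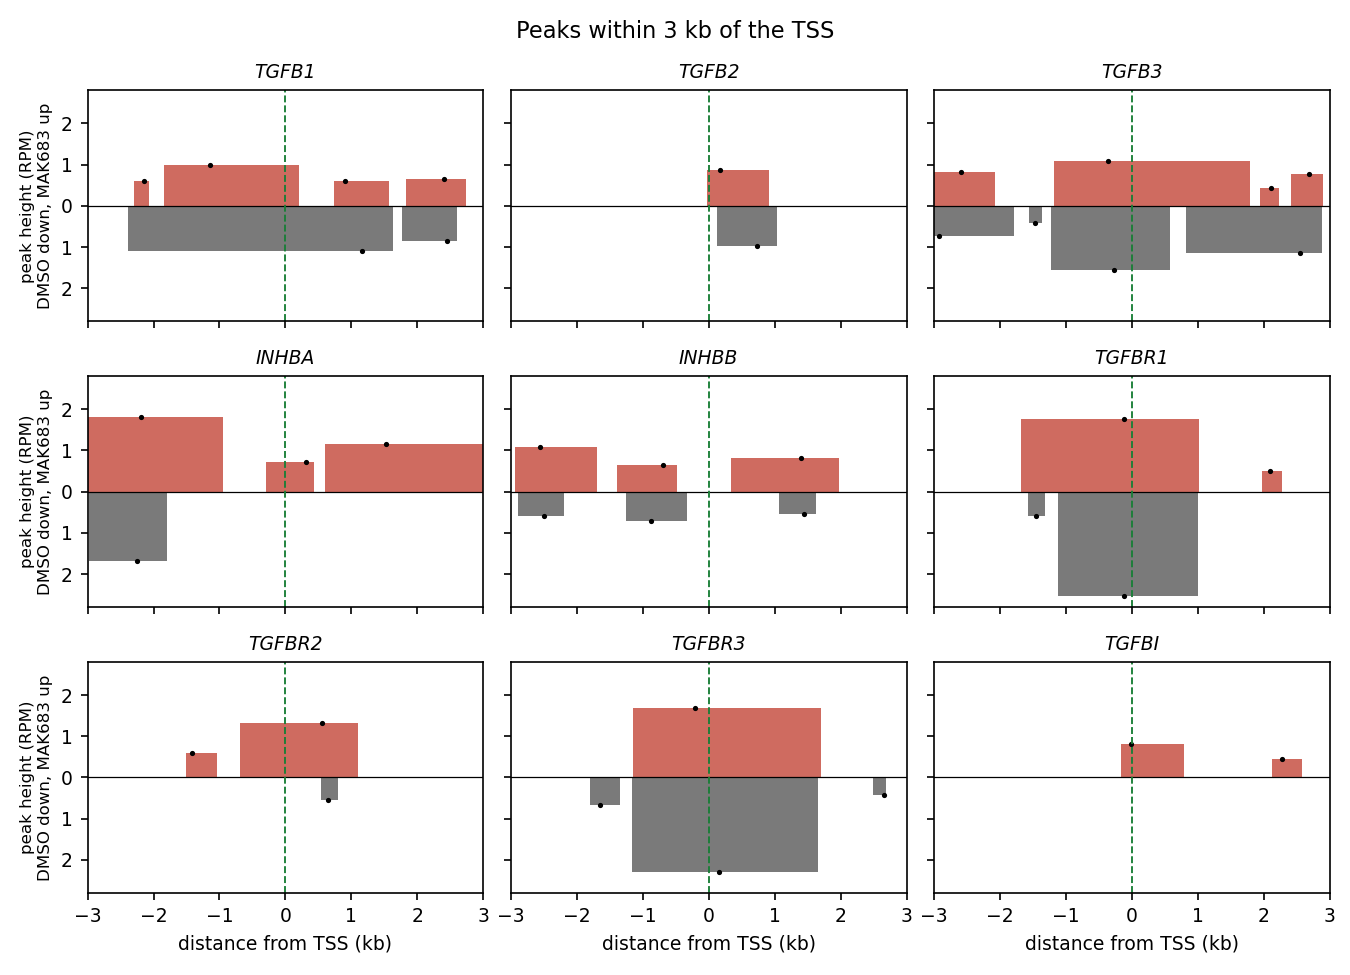
Peaks within 3 kb of the TSS of each gene, drawn to scale. The horizontal axis is the distance from the TSS in kb in the direction of transcription and the vertical axis is peak height in RPM, upward for MAK683 (red) and downward for DMSO (grey). Each block is 1 peak, dots are summits and the dashed line is the TSS. TGFBI had blocks in MAK683 alone, and TGFB2, TGFBR2 and INHBA had a block across the TSS in MAK683 alone.

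The map of the promoter windows also shows that a similar height could go with a different layout. The 9 windows held 17 peaks in DMSO and 22 in MAK683. At TGFB1, 1 wide DMSO peak lay over the same bases as 3 narrower MAK683 peaks, so the count of peaks there was higher in MAK683 although fewer bases were covered.

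Of the receptor genes, TGFBR2 stood apart from TGFBR1 and TGFBR3. TGFBR1 (ENSG00000106799, chromosome 9, 101866320 to 101916474, plus strand) encodes the type I receptor kinase. It had 42 tags in DMSO (2.53 RPM, 1.82 to 3.42) and 32 in MAK683 (1.75 RPM, 1.20 to 2.47), with summits 115 and 118 bp upstream of the TSS. This gave a log2 ratio of -0.53 (-1.24 to 0.17), close to the median of all promoters. TGFBR3 (ENSG00000069702, chromosome 1, 92145900 to 92371892, minus strand) had 38 tags in DMSO (2.29 RPM, 1.62 to 3.14) and 31 in MAK683 (1.70 RPM, 1.15 to 2.41). Its log2 ratio was -0.43 (-1.16 to 0.29). Both promoters were thus among the taller of the 9 in each library, and the interval of each ratio included 0.

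TGFBR2 (ENSG00000163513, chromosome 3, 30648093 to 30735634, plus strand) encodes the type II receptor that binds TGF-beta ligand. Its promoter peak had 9 tags in DMSO, 0.542 RPM (0.248 to 1.03), at 30648626 to 30648897. In MAK683 it had 24 tags, 1.31 RPM (0.842 to 1.96), at 30647399 to 30649191. The summits were 640 and 548 bp downstream of the TSS, in an intron. MAK683 was 2.42-fold higher, a log2 ratio of 1.28 (0.12 to 2.57). Of the 8 genes with a ratio interval, only this one had an interval that left out 0. The share of all promoters with such an interval was not computed, so this count has no background. The ratio stood at percentile 98.3 of all promoters. The DMSO peak was weak, with a −log10 q-value of 4.22. It dropped out when at least 5 was required of every peak, which left a log2 ratio of 1.12 against the floor of that list. With at least 10 required, TGFBR2 was 1.45-fold higher, a log2 ratio of 0.54 against the floor of that list. The DMSO peak was 272 bp long and did not reach the TSS. The MAK683 peak was 1793 bp long and covered it. A further MAK683 peak with 11 tags lay 1413 bp upstream, where none was listed in DMSO.

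In the body of TGFBR2, DMSO had 1 more peak and MAK683 had 9 more. The DMSO peak lay near the end of the gene with 12 tags, 0.723 RPM, and its counterpart in MAK683 had 10 tags, 0.547 RPM. The tallest body peak of MAK683 had 12 tags (0.657 RPM) at 30720797 to 30721434, in an intron 72885 bp from the TSS. TGFBR1 had 1 peak away from its TSS, in DMSO alone, with 10 tags in an intron 35815 bp into the gene. TGFBR3, the longest of the 9 genes at 226 kb, had its tallest body peaks deep in an intron. They had 15 tags (0.904 RPM) 153389 bp from the TSS in DMSO and 22 tags (1.20 RPM) 148910 bp from the TSS in MAK683. The MAK683 one had a DMSO counterpart of 13 tags (0.783 RPM), and the DMSO one had a MAK683 counterpart of 8 tags (0.438 RPM).

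TGFBI (ENSG00000120708, chromosome 5, 135364677 to 135399507, plus strand) had no listed peak in DMSO and 10 in MAK683. The promoter peak of MAK683, at 135364509 to 135365473, had 15 tags, 0.821 RPM (0.460 to 1.35), and its summit was 7 bp upstream of the TSS. If DMSO signal there was no higher than the lowest listed DMSO peak, this was at least 2.27-fold higher, a log2 ratio of 1.18 at percentile 97.8 of all promoters. Signal below the limit of the DMSO peak list would not have been listed. The other 9 peaks had 6 to 13 tags and summits in introns, from 2277 to 34035 bp downstream of the TSS. The tallest of them had 13 tags, 0.712 RPM (0.379 to 1.22), at 135379673 to 135379900. All 10 were thus low peaks. With a −log10 q-value of at least 5 required, 3 of the 10 were left, and with at least 10 none was left.

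**Figure D3:**
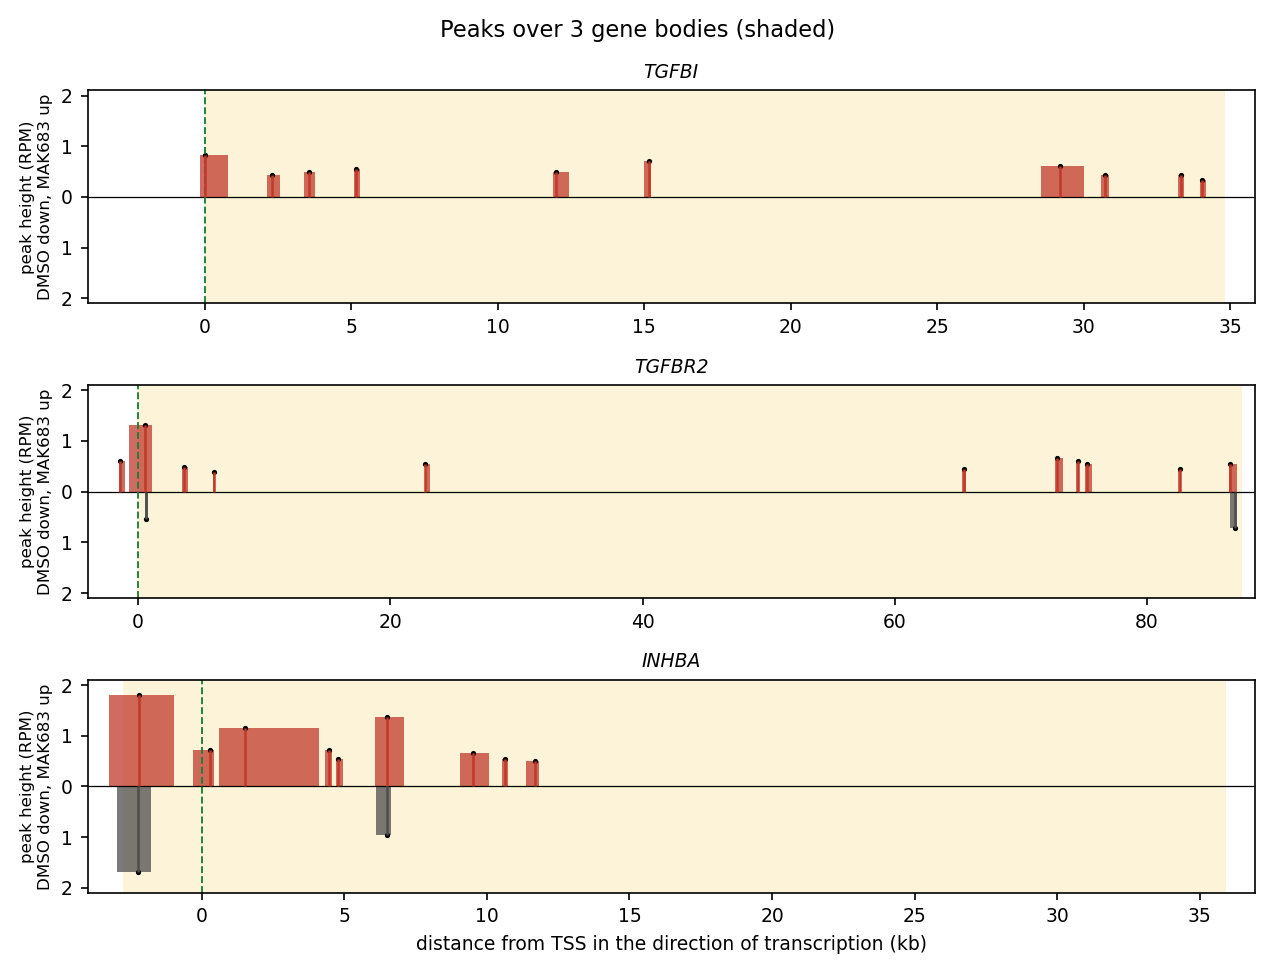
Peaks along the bodies of TGFBI, TGFBR2 and INHBA. The horizontal axis is the distance from the TSS in kb in the direction of transcription, a different scale for each gene, and the vertical axis is peak height in RPM, upward for MAK683 (red) and downward for DMSO (grey). Shading is the annotated gene body and the dashed line the canonical TSS. DMSO had 0, 2 and 2 peaks in these genes and MAK683 had 10, 11 and 9, of which most were under 1 RPM.

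The map of the gene bodies shows MAK683 peaks toward both ends of TGFBI and TGFBR2 and over the 5′ part of INHBA. No summit was listed from 15150 to 29182 bp past the TSS in TGFBI, or from 22782 to 65515 bp in TGFBR2, between the peaks at these places. The surroundings of these genes moved in the same direction. Within 100 kb on each side of the locus, peaks numbered 7 in DMSO and 32 in MAK683 at TGFBI, 2 and 9 at TGFBR2, and 1 and 6 at INHBA. All 3 thus had more flanking peaks in MAK683, which held for 46.5% of all genes with a flanking peak. The part of this regional difference in the counts over the genes was not tested.

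**Figure D4:**
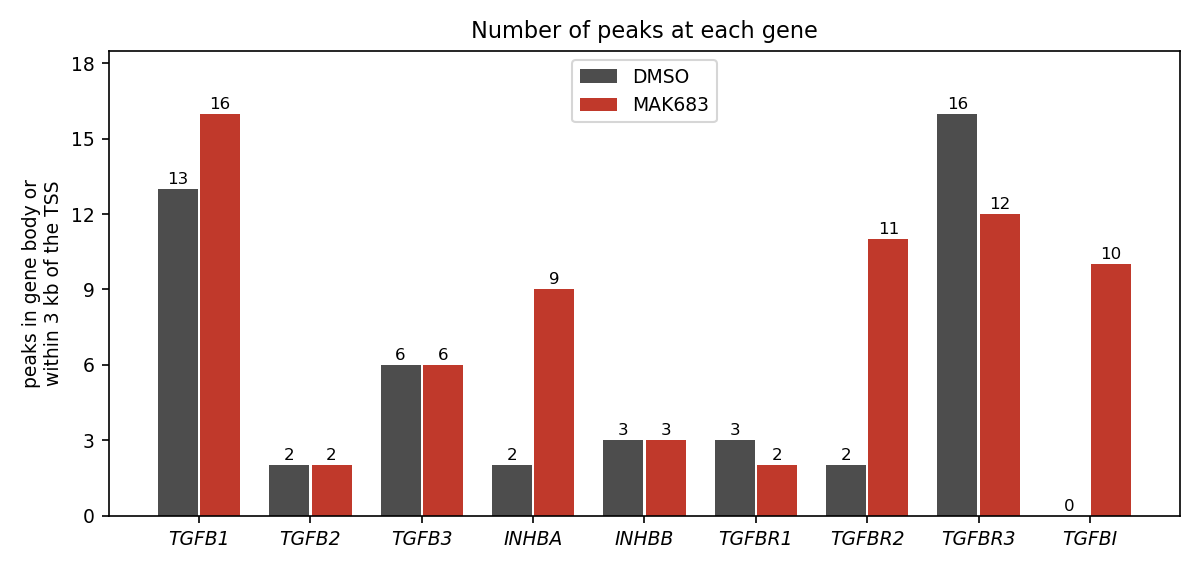
Number of peaks in the body or within 3 kb of the TSS of each gene in the DMSO library (grey) and the MAK683 library (red), with the counts above the bars. INHBA, TGFBR2 and TGFBI had 7, 9 and 10 more peaks in MAK683, and TGFBR1 and TGFBR3 had fewer.

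In numbers of peaks, 4 genes had more in MAK683, 3 had equal numbers and 2 had fewer. INHBA went from 2 to 9, TGFBR2 from 2 to 11, TGFBI from 0 to 10 and TGFB1 from 13 to 16. TGFB2, TGFB3 and INHBB stayed at 2, 6 and 3, and TGFBR1 went from 3 to 2 and TGFBR3 from 16 to 12. The total of 47 and 71 gave a ratio of 1.51, beside 1.41 for the whole libraries, which include peaks outside genes. The surplus of MAK683 was smaller at genes. At protein-coding loci 38.4% of regions were in MAK683 alone and 29.3% in DMSO alone, against 45.9% and 25.1% of all regions. A count at least 2 times as large was seen at 3 of the 9, against 25.1% of 17627 genes with a peak in either library, a share near the background. At least 7 more peaks were also seen at 3 of the 9, against 8.56% of these genes and 6.68% of those with bodies of 30 to 100 kb, the range that holds INHBA, TGFBR2 and TGFBI. TGFBI was the 1 gene of the 9 without a DMSO peak that had peaks in MAK683, which held for 8.25% of genes, and 0.72% went from none to 10 or more. The limits of 7 peaks, 10 peaks and 30 to 100 kb were set after these counts had been seen. Fewer peaks in MAK683 were counted at 2 of the 9 and at 42.7% of all genes.

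These counts rest mostly on low peaks. Of the 47 DMSO peaks 39 were under 1 RPM, and of the 71 MAK683 peaks 61 were. This is not particular to these genes, since the median height of all peaks was 0.663 RPM in DMSO and 0.547 RPM in MAK683. With a −log10 q-value of at least 5, TGFBR2 had 1 peak in DMSO and 4 in MAK683, INHBA had 2 and 6, and TGFBI 0 and 3. The DMSO peak left at TGFBR2 was the one near the end of the gene, not the promoter peak. At a limit of 10, TGFBR2 had 0 and 1, INHBA 2 and 3, and TGFBI none in either library. The order of the libraries at TGFBR2 and INHBA was thus kept at both limits. Counted over canonical transcripts, a choice added after the data had been seen, TGFB1 had 3 and 4 peaks in place of 13 and 16, because its longest transcript overlaps HNRNPUL1, CCDC97 and TMEM91.

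Overlapping peaks of the libraries were merged into 73 regions at the 9 genes, of which 26 were shared, 13 were listed in DMSO alone and 34 in MAK683 alone. The 34 included 10 at TGFBI, 9 at TGFBR2 and 7 at INHBA. TGFBR3 had 7 of the 13 in DMSO alone and TGFB1 had 4. Among the 26 shared regions, 10 were taller in MAK683 and 16 in DMSO, with a median log2 ratio of -0.14. Only the TGFBR2 promoter and the intronic TGFB1 region near CCDC97 had an interval that left out 0, and that of the TGFB1 region included -0.46, the median used for centring. The same shares over all shared regions were not computed, so these counts have no background. The length covered by peaks was 40471 bp in DMSO and 57735 bp in MAK683. Over the loci of all protein-coding genes, 38.4% of regions were listed in MAK683 alone and 29.3% in DMSO alone, beside 46.6% and 17.8% at the 9 genes, and 32.4% were shared, beside 35.6%.

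Other genes of the pathway were compared by role, over a list of 55 that shares none of the 9. Of these, 50 had a promoter peak, 13 were higher in MAK683 and 37 lower (26 higher when centred as above), with a median log2 ratio of -0.43, almost the -0.42 of all promoters. At least 2-fold higher was 1 gene, DCN, which encodes decorin, a matrix proteoglycan that binds TGF-beta. It had no promoter peak in DMSO and 14 tags in MAK683 (0.766 RPM), a log2 ratio of 1.08 against the floor. At least 2-fold lower were 2 genes. TRIM33, whose product acts on SMAD4, had 38 tags in DMSO and 18 in MAK683, a log2 ratio of -1.22 (-2.11 to -0.37). BAMBI, a decoy receptor without kinase, had 33 and 18 tags, -1.01 (-1.93 to -0.14). The intervals of TRIM33 and BAMBI left out 0 but included -0.46, the median of promoters with a peak in both libraries. Promoter peaks in MAK683 alone were listed for DCN, for LEFTY2, a secreted inhibitor of nodal signaling (12 tags, 0.657 RPM), and for ITGB6, an integrin chain that activates latent TGF-beta (7 tags, 0.383 RPM). None of the 55 had one in DMSO alone.

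**Figure D5:**
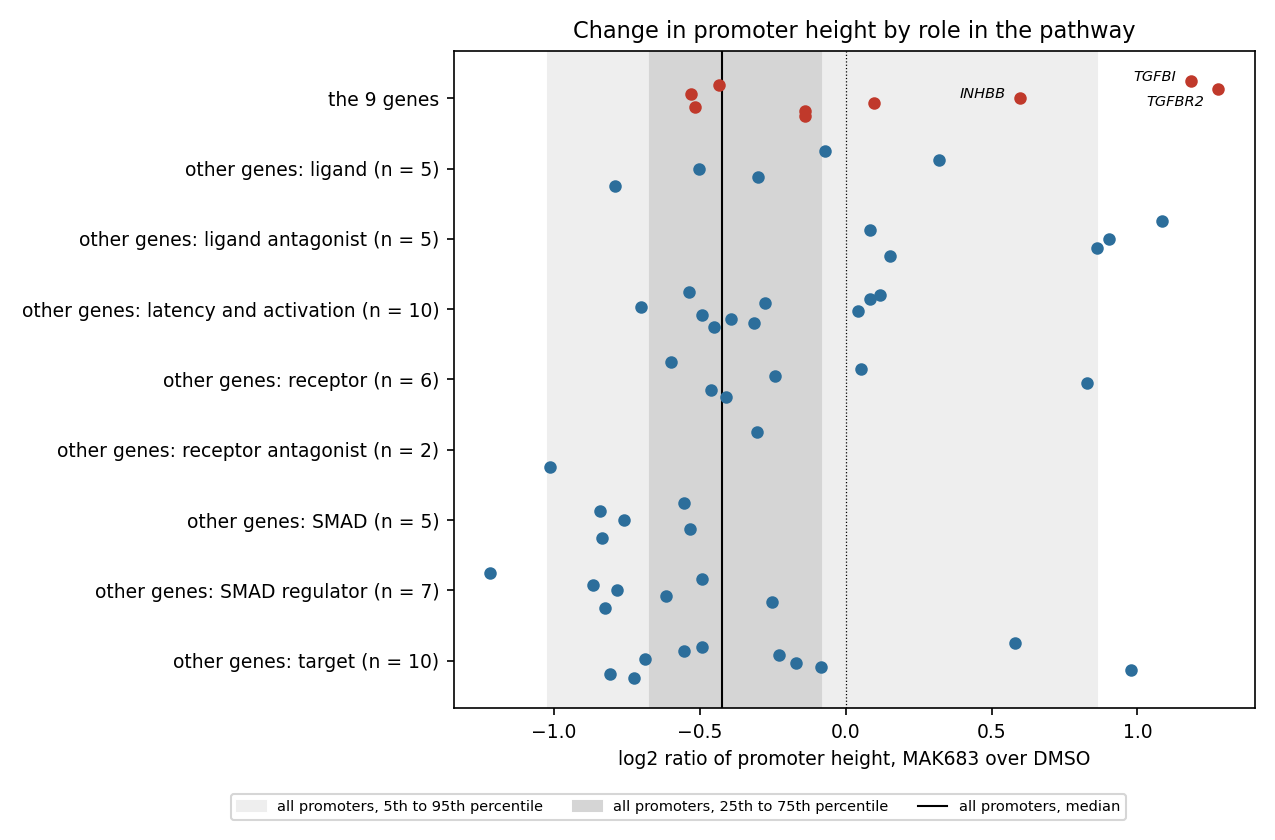
Log2 ratio of promoter height, MAK683 over DMSO, for the 9 genes (red) and for the other pathway genes with a promoter peak (blue), 1 point per gene, by role. The black line is the median of all promoters (-0.42), the bands are the ranges from the 25th to the 75th and from the 5th to the 95th percentile of all promoters, and vertical offsets within a role only separate points. All ligand antagonists with a peak lie right of 0, of which LEFTY2 and DCN had no DMSO peak and stand against the floor. All SMAD genes and SMAD regulators lie left of 0, of which 1 regulator, SKIL, passes to the right when ratios are centred on -0.46.

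Roles differed in promoter height in DMSO, which is the denominator of the ratio, and ratios followed that height across all genes. The counts by role are therefore given beside promoters of like height. What height contributed to them was not tested. All 5 ligand antagonists with a promoter peak were higher in MAK683, and named after their values were seen these were FST, FSTL3, LEFTY1, LEFTY2 and DCN. LEFTY2 and DCN had a peak in MAK683 alone. They thus entered the count through that library, and their ratios against the floor could hardly fall below 0. The median log2 ratio of 0.86 is the value of LEFTY2 itself. All but FST had under 1 RPM or no peak in DMSO, and of all such promoters 66.8% were higher. FSTL3 (0.08) and LEFTY1 (0.15) had ratios near 0. FST encodes follistatin, which binds and neutralises activins. It had 18 tags in DMSO (1.08 RPM) and 37 in MAK683 (2.03 RPM), a log2 ratio of 0.90 (0.05 to 1.80). The 5 SMAD genes were all lower, with a median of -0.76, and so were the 7 SMAD regulators, with a median of -0.78, of which 1, SKIL, was higher once ratios were centred. All of these had at least 1 RPM in DMSO, where 6.16% of promoters were higher in MAK683 and the median was -0.52. Medians of the other roles were -0.30 for ligands, -0.35 for latency and activation genes, -0.32 for receptors, -0.66 for receptor antagonists and -0.36 for target genes. The highest ratio among these receptors was that of ACVR1C, which encodes the type I receptor ALK7 and was named after its value was seen. It had 22 tags in DMSO and 43 in MAK683, a log2 ratio of 0.83 (0.06 to 1.64). The plot by role shows TGFBR2 and TGFBI to the right of the 95th percentile of all promoters, and INHBB inside it.

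Promoter ratios varied with the level in DMSO across all genes. DMSO height is the denominator of the ratio, so a split by it builds in part of this difference. The low class also holds the 1587 genes with a promoter peak in MAK683 alone, whose ratios are against the floor. Genes with under 1 RPM or no peak in DMSO had a median log2 ratio of 0.31, and the 12120 genes with at least 1 RPM had one of -0.52. Among the latter, 3 were at least 2-fold higher. Of the 9 genes, 3 of the 4 in the low class and 1 of the 5 in the other were higher in MAK683. TGFBR2, TGFBI, INHBB and TGFB2 belonged to the low class, with log2 ratios of 1.28, 1.18, 0.60 and -0.14. TGFB1, TGFB3, INHBA, TGFBR1 and TGFBR3 belonged to the other class, with -0.14, -0.52, 0.10, -0.53 and -0.43. Read against their own class, 3 of the 4 low genes and 3 of the 5 others lay above its median.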

How the data were processed

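ATAC-seq peak lists of G401 cells treated with DMSO or MAK683 were analysed, 1 library per group, so no test was run. The 9 genes, the 55 other pathway genes and the motifs were chosen with earlier results of these data known.

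Per the study's methods, 150-bp paired reads went through Trim-galore and Bowtie2 (hg19). The authors then called peaks separately in each library. The file headers name MACS 2.1.1.20160309, while the labels name MACS2 2.1.0 and 2.2.7.1. The headers give a shift of -100 bp, an extension to 200 bp, no control, no local background, 1 tag kept per position, reading as single ends and a q-value cutoff of 0.05. Of 23901891 and 26692938 tags in DMSO and MAK683, 16598348 and 18265284 were kept, so 1 tag is 0.0602 and 0.0547 RPM.

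The deposited pileup is a signal in whole tags, with no depth correction. The fold enrichment the authors deposited is a ratio to one genome-wide background. Each deposited −log10 q-value, like the deposited −log10 p-value, grows with depth, and the former served as a filter in alternatives.

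Heights, intervals and ratios were computed with Python 3.11.15, numpy 2.4.6, pandas 2.3.3 and scipy 1.17.1, with code tested on simulated data. Genes came from GENCODE 44 lifted to GRCh37, with the TSS of the Ensembl canonical transcript where marked and the body over all transcripts. Libraries without a promoter peak were set to 0.361 RPM, the larger of the lowest listed heights. Regions of the libraries were counted as shared from an overlap of 1 bp. Sequences were read from GRCh37 with pysam 0.24.0.

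All 9 genes were named, with the tallest peak of each away from the TSS. Other pathway genes were named when at least 2-fold different or with a promoter peak in 1 library, and any further gene is marked as named after its value was seen. Alternatives were stricter q-value limits, other TSS windows and peak choices, unscaled pileup, fold enrichment, centring on promoters with a peak in both libraries and, added after the data were seen, canonical transcript bodies.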

Additional observations from a re-analysis of the deposited data

How the results depend on the processing

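No paired analysis was possible because there was 1 library per group. Of 118 alternative log2 ratios and medians, 8 turned sign, 3 of them medians and 5 single genes. When centred these genes were TGFB1 and TGFB2 (0.32 each) and TGFBR3 (0.028), and with the peak nearest to the TSS INHBA (-1.24) and INHBB (-0.14). A −log10 q-value of at least 5 left 25 DMSO and 39 MAK683 peaks at the 9 genes, and at least 10 left 11 and 15. With the latter, 8 other pathway genes were higher in MAK683 in place of 13. Centring on promoters with a peak in both libraries turned the median log2 ratio of the 9 genes to 0.32 with 7 genes higher, that of the other pathway genes to 0.031 with 26 higher, and that of all genes to 0.038, since it adds a constant to every ratio. The median of all genes was -0.43 and -0.45 under the q-value limits of 5 and 10, -0.44 with a 1 kb window, -0.29 without depth scaling, -0.36 by fold enrichment and -0.46 over genes with a peak in both libraries. Taking the peak nearest to the TSS left 2 of the 9 genes higher, because other peaks are then compared. The 1 kb window, which no DMSO peak of INHBA reaches, gave INHBA 2.32, above TGFBR2 and TGFBI. It took the MAK683 peak of 33 tags whose summit lay 2193 bp upstream and whose edge reached the window. The DMSO peak of 28 tags in the same region missed the window, so DMSO was set to the floor. With the 3 kb window this region gave 0.10. MAK683 peaks of 21 tags (1.15 RPM) and 13 tags (0.712 RPM) at and behind the INHBA TSS also overlapped the 1 kb window, without a DMSO peak. The former was taller than the TGFBI promoter peak (0.821 RPM), which is set against the same floor. INHBA's place above TGFBI thus did not rest on the upstream region alone. TGFBR2 ran from 0.54 (−log10 q-value of at least 10) to 1.74 (centred). TGFBI had 0.45 with a q-value limit of 5, 1.32 without depth scaling, 1.11 by fold enrichment and 1.64 when centred, and no peak in either library with a limit of 10. At these depths, 1 tag is a large step for peaks of 6 to 15 tags, as at TGFBI.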

Other observations

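Peaks that overlapped the 100 kb on each side of the 9 genes and their TSS windows numbered 63 in DMSO and 140 in MAK683, a ratio of 2.22 beside 1.51 for the genes themselves. Summed over the flanks of all protein-coding genes, where a peak can count for several genes, the ratio was 1.03. MAK683 had more flanking peaks at 7 of the 9 genes and fewer at 2, against 46.5% and 47.1% of all genes with a flanking peak. At TGFB2, where the gene itself had 2 peaks in each library, the flanks held 8 in DMSO and 32 in MAK683. At INHBB, with 3 peaks in each library, they held 3 and 18. At TGFBR1, which had 3 and 2 peaks, they held 7 and 18. The flanks of TGFB3 held 2 and 3. The flanks of TGFB1 (18 and 12) and of TGFBR3 (15 and 10) held fewer in MAK683. Flanks were counted without regard to the genes they contain.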
